A study of Caenorhabditis elegans with 6 samples.

Results

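The genes described here encode the contractile apparatus of Caenorhabditis elegans body wall muscle: thick filaments, thin filaments, the dense bodies and elastic proteins that anchor them, and the channels and pumps that move calcium. A list of 34 gene symbols defined them, and 33 of the 34 were rows among the 46748 gene rows of the deposited tables. The remaining symbol, clik-1, was counted under its sequence name T25F10.6 and is given apart from the 33. All 33 passed the filter on low counts, as did clik-1.

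RNA was sequenced from 3 libraries of anchor cells and 3 libraries of whole-body cells, all from wild-type (WT) larvae in mid L3, staged by a P6.p vulval precursor that had divided to 2 cells. The anchor cell is a uterine cell that invades through the basement membrane toward the vulval epidermis. In both groups worms fed on NA22 bacteria at 20 °C, cells were released with SDS-DTT and pronase E at 15 mg/mL, and the suspension passed a 5 μm filter. The sources used here do not give how anchor cells were separated from the other cells, and no label ties a replicate to a culture of its own, so the p-values measure the spread between these libraries, which may be technical. The comparison asks which muscle genes differ between anchor cells and the cell mixture of the whole larva.

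In body wall muscle, myosin thick filaments slide along actin thin filaments. Thick filaments are joined at the M-line and thin filaments at dense bodies, the worm counterpart of the vertebrate Z-disc. Calcium enters through an L-type channel and leaves the sarcoplasmic reticulum through the ryanodine receptor. It binds troponin C on the thin filament and so lets myosin engage actin, and a calcium ATPase then returns it to the reticulum, where calsequestrin stores it. Regulatory light chains on myosin are a further control point.

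The libraries held 23279623 to 37501816 counts on genes, where 3 counts correspond to 0.0800 to 0.129 CPM (counts scaled to a common library size, the unit of levels throughout). Replicates of a group were less alike for anchor cells (Spearman's rho across all genes, 0.755 to 0.807) than for whole-body cells (0.841 to 0.892). Anchor cell replicate 1 was less like anchor cell replicates 2 and 3 (0.768 and 0.755) than like the whole-body libraries (0.779, 0.779 and 0.774). It had counts on 16990 genes, against 11508 and 11073 in anchor cell replicates 2 and 3. Of 10 anchor cell markers, 7 rose in anchor cells (edgeR, adjusted p under 0.05), as did 2.01% of all tested genes. The marker list summed to 1434, 3244 and 2675 CPM in anchor cell replicates 1, 2 and 3 and to 402 to 647 CPM in whole-body libraries. The myogenic factor gene hlh-1, which marks body wall muscle, had 0, 3 and 20 counts in the anchor cell libraries, in the order of replicates 1, 2 and 3 used throughout, and 81, 58 and 61 counts in the whole-body libraries. On the scaled level its groups overlapped, with anchor cell replicate 3 at 0.963 CPM and whole-body replicate 2 at 0.933 CPM. The muscle factor gene unc-120 had 847, 5 and 908 counts in the anchor cell libraries and 2056, 2352 and 748 in the whole-body libraries, so its groups overlapped.

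As a group, muscle genes were lower in anchor cell libraries. Every one of the 33 had counts in every library, and unc-98 in anchor cell replicate 3 alone was under the floor of 3 counts, with 1. Of all gene counts, the 33 genes together took 0.811%, 0.568% and 0.743% in the anchor cell libraries and 3.50%, 3.59% and 3.43% in the whole-body libraries. With libraries scaled by the trimmed mean of M-values (TMM), their summed level was 9404 ± 1502 CPM in anchor cells and 26644 ± 4413 CPM in the whole body (SD over 3 libraries a group), 2.83 times as high in the latter. Of the 33, 32 had a log2 fold change below 0, where 53.2% of all 11955 tested genes did. Their median log2 fold change was -1.45, and that of all tested genes was -0.12. Taken library by library against the whole-body mean, the median of the 33 was -1.39, -1.64 and -1.58 and that of all tested genes -0.23, -0.65 and -1.09, so the 33 stood least far below all genes in replicate 3. Bulk samples do not show which cells the RNA of these genes came from. Fewer muscle cells and less RNA per muscle cell cannot be told apart in them either.

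By edgeR's quasi-likelihood test, with Benjamini-Hochberg adjustment over all tested genes and a threshold of 0.05, 6 of the 33 fell and none rose. The 6 were the paramyosin gene unc-15, the regulatory light chain gene mlc-1, the obscurin-like gene unc-89, the troponin I gene unc-27, the immunoglobulin repeat gene dim-1 and the calsequestrin gene csq-1. Of all tested genes 1.05% fell and 2.01% rose. At an unadjusted p under 0.05, 24 of the 33 were lower and none higher, against 13.2% and 11.2% of all tested genes. DESeq2 called 8 of the 33 lower and none higher, where it called 10.6% and 5.37% of all its tested genes. Limma voom called 17 lower and none higher (9.47% and 3.45% of all genes), and with sample weights again 17 and none (11% and 5.31%). The levels of 27 of the 33 were below every whole-body library in every anchor cell library, as were those of 23.2% of all tested genes, and none were above in every library, as 12.4% of all tested genes were. The calls depended on single libraries. Without anchor cell replicate 1, 17 of the 33 fell and 8.71% of all tested genes did. Without replicate 2 the values were 1 and 0.368%, and without replicate 3 they were 3 and 0.953%. Without whole-body replicate 1 they were 2 and 0.222%, and without whole-body replicate 2 they were 2 and 0.210%. Without whole-body replicate 3 none of the 33 was called, against 0.0532% of all tested genes, with csq-1 and unc-27 nearest to the threshold (edgeR adjusted p = 0.0784 for both).

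**Figure D1:**
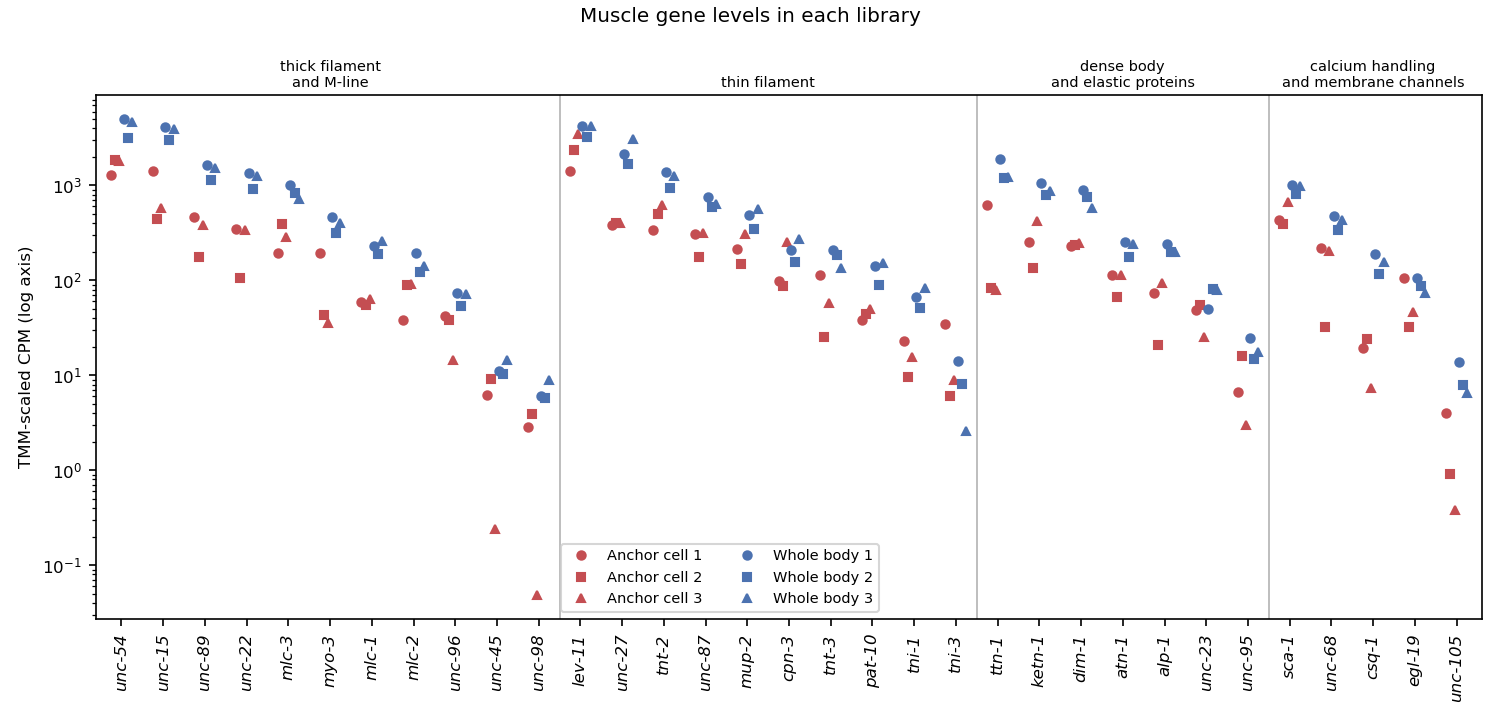
Level of each of the 33 genes in each library, as TMM-scaled CPM on a log axis, with 1 point per library and genes ordered within each role by their whole-body mean. Red points (anchor cells) lie below all blue points (whole body) for 27 genes, and the red points are spread more widely than the blue for most genes.

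All 11 thick filament and M-line genes were below the whole-body range in every anchor cell library (23.2% of all tested genes were). Of the 11, 3 fell (1.05% of all tested genes). Their median log2 fold change was -1.61. Their summed level was 3616 ± 413 CPM in anchor cells and 12311 ± 2287 CPM in the whole body (SD, n = 3 each). The main body wall muscle myosin heavy chain, MHC B, is encoded by unc-54 (chromosome I, 14855901 to 14863482, build WBcel235). It stood at 1278, 1850 and 1823 CPM in the anchor cell libraries and at 5033, 3191 and 4687 CPM in the whole-body libraries. The groups did not overlap, yet its log2 fold change of -1.38 ± 0.39 (SE) did not pass (edgeR adjusted p = 0.0682).

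Myosin heavy chain A, which in muscle sits at the centre of the thick filament, is encoded by myo-3 (chromosome V, 12226817 to 12234343). Its level was 193, 42.9 and 35.7 CPM in the anchor cell libraries and 461, 312 and 398 CPM in the whole-body libraries. Anchor cell replicate 1 was 5.40 times as high as replicate 3, whereas the whole-body libraries lay within 1.48-fold of each other. The log2 fold change of -2.11 ± 0.64 (SE) did not pass (edgeR adjusted p = 0.0790), but it reached -3.31 without anchor cell replicate 1 (edgeR adjusted p = 0.00424).

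Paramyosin forms the core of invertebrate thick filaments, and its gene unc-15 (chromosome I, 7376604 to 7383197) fell. Its level was 1408, 443 and 574 CPM in the anchor cell libraries and 4166, 3001 and 3881 CPM in the whole-body libraries. Replicate 1 was again the highest of the anchor cell libraries, and the groups did not overlap. The log2 fold change was -2.19 ± 0.50 (SE; edgeR adjusted p = 0.0486), just inside the threshold, and the call held without anchor cell replicate 1 (edgeR adjusted p = 0.00424) and not when any of the other libraries was left out (0.0704 to 0.136).

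The giant proteins of the A-band gave like values. The obscurin-like M-line protein gene unc-89 (chromosome I, 4035702 to 4090885) had 465, 177 and 383 CPM in anchor cells and 1657, 1133 and 1543 CPM in whole-body cells. It fell by 2.08 on the log2 scale (SE 0.45, edgeR adjusted p = 0.0411). Of the 6 libraries, the call survived leaving out anchor cell replicate 1 (0.0183) and none of the rest (0.0627 to 0.136). The twitchin kinase gene unc-22, whose product lies along the thick filament, had 349, 107 and 335 CPM against 1338, 908 and 1258 CPM. Its log2 fold change of -2.15 ± 0.50 (SE) was just outside the threshold (edgeR adjusted p = 0.0512). In both genes anchor cell replicate 2 was the lowest library.

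Myosin light chains differed in how steady they were. The regulatory light chain gene mlc-1 (chromosome X, 17459210 to 17460778) had 59.0, 54.8 and 63 CPM in anchor cells and 231, 188 and 259 CPM in whole-body cells. The 3 anchor cell values lay within 1.15-fold of each other, and it fell by 1.94 on the log2 scale (SE 0.38, edgeR adjusted p = 0.0278). The neighbouring regulatory light chain gene mlc-2 (chromosome X, 17455792 to 17456586) had 37.9, 88.8 and 90.7 CPM against 192, 123 and 141 CPM, with a log2 fold change of -1.07 ± 0.45 (SE; edgeR adjusted p = 0.180). The proteins of mlc-1 and mlc-2 are near-identical, so reads can be shared between the genes and the split between them is uncertain. In addition, 12.0% of the exonic bases of mlc-2 overlap a gene on the other strand, and the sources used here do not give the strand setting of the counting. The call of mlc-1 was lost without anchor cell replicate 2 (edgeR adjusted p = 0.0745) or whole-body replicate 1 (0.122), 2 (0.0685) or 3 (0.136). The essential light chain gene mlc-3 had 194, 395 and 284 CPM against 1012, 836 and 726 CPM and did not pass (log2 fold change -1.56 ± 0.40, SE; edgeR adjusted p = 0.0666).

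The assembly and M-line genes unc-45, unc-98 and unc-96 had the lowest whole-body levels of the thick filament list. The myosin chaperone gene unc-45 had 154, 179 and 5 counts in the anchor cell libraries and 458, 634 and 407 counts in the whole-body libraries. The zinc finger M-line protein gene unc-98 had 72, 76 and 1 counts against 252, 355 and 252. Its partner gene unc-96 had 1065, 750 and 303 counts against 3069, 3304 and 2040. For all 3 genes anchor cell replicate 3 was the lowest library, and none of them passed (log2 fold changes of -1.20 ± 1.06, -1.61 ± 1.26 and -1.07 ± 0.51, SE; edgeR adjusted p = 0.543, 0.482 and 0.239).

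Among the 10 thin filament genes, 1 fell (1.05% of all tested genes). Of the 10, 7 were below the whole-body range in every anchor cell library (23.2% of all tested genes). Their median log2 fold change was -1.30. Summed, they reached 4078 ± 1299 CPM in anchor cells and 9102 ± 1606 CPM in the whole body (SD, n = 3 each). Whole-body levels were 2.23 times those of anchor cells for these genes and 3.4 times for the thick filament genes, a difference that was not tested. Over the anchor cell libraries the thin filament sum was 2979, 3743 and 5512 CPM, while the thick filament sum was 4036, 3210 and 3603 CPM. Replicate 1 thus held more thick than thin filament RNA by this measure, and replicates 2 and 3 held less. The tropomyosin gene lev-11 alone gave 1420, 2348 and 3493 CPM of the thin filament sums. Without it the thin filament sum lies below the thick filament sum in every anchor cell library. The mean of lev-11 was 2420 CPM in anchor cells and 3895 CPM in the whole body, so it also weighs on the value of 2.23.

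Troponin I is the subunit that holds back the actin-myosin interaction until calcium binds. Its gene unc-27 (chromosome X, 8789456 to 8790621) had 387, 399 and 403 CPM in anchor cells and 2157, 1699 and 3048 CPM in whole-body cells. The anchor cell values lay within 1.04-fold of each other, the narrowest range of the 33 genes, and far below the whole-body range. The gene fell by 2.54 on the log2 scale (SE 0.40, edgeR adjusted p = 0.0124), and the call was lost without anchor cell replicate 2 (edgeR adjusted p = 0.0526) or whole-body replicate 3 (0.0784).

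The other 2 troponin I genes parted. The gene tni-1 had 23.3, 9.62 and 15.7 CPM in anchor cells and 66.2, 51.2 and 83.2 CPM in whole-body cells (log2 fold change -2.04 ± 0.52, SE; edgeR adjusted p = 0.0625). The gene tni-3 (chromosome V, 16833638 to 16835128) had 35, 5.99 and 8.86 CPM against 14.2, 8.14 and 2.58 CPM. It was the only one of the 33 with a log2 fold change above 0, at 1.00 ± 0.90 (SE; edgeR adjusted p = 0.549). That sign rested on anchor cell replicate 1, which was the highest of all 6 libraries, and the log2 fold change was -0.16 without it (edgeR adjusted p = 0.909).

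Tropomyosin, which lies along the actin filament, and the tropomyosin-binding troponin T are encoded by lev-11, tnt-2, mup-2 and tnt-3. The tropomyosin gene lev-11 (chromosome I, 14621169 to 14631094) had 1420, 2348 and 3493 CPM in anchor cells and 4206, 3249 and 4229 CPM in whole-body cells. Anchor cell replicate 3 lay inside the whole-body range, and the gene did not pass (log2 fold change -0.69 ± 0.42, SE; edgeR adjusted p = 0.368). The troponin T gene tnt-2 had 336, 499 and 615 CPM against 1369, 933 and 1266 CPM (log2 fold change -1.30 ± 0.39, SE; edgeR adjusted p = 0.0767). Levels of the troponin T gene mup-2 were 216, 150 and 305 CPM against 483, 344 and 567 CPM, and those of tnt-3 were 114, 25.4 and 57.9 CPM against 209, 185 and 136 CPM. For tnt-2, mup-2 and tnt-3 the groups did not overlap, and mup-2 and tnt-3 did not pass (edgeR adjusted p = 0.147 and 0.138). The body wall muscle troponin C gene pat-10, the calcium sensor of the thin filament, had 38, 44.6 and 49.4 CPM against 142, 89.5 and 151 CPM (log2 fold change -1.53 ± 0.41, SE; edgeR adjusted p = 0.0682).

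Calponin-related proteins bind actin along the thin filament. The gene unc-87, whose product stabilises the filaments, had 310, 175 and 314 CPM in anchor cells and 758, 586 and 635 CPM in whole-body cells (log2 fold change -1.31 ± 0.39, SE; edgeR adjusted p = 0.0745). The calponin gene cpn-3 had 98.6, 87.5 and 252 CPM against 208, 158 and 272 CPM, and its groups overlapped through anchor cell replicate 3 (log2 fold change -0.54 ± 0.49, SE; edgeR adjusted p = 0.553). The calponin-like gene clik-1, read from its row T25F10.6, had 247, 206 and 358 CPM against 850, 637 and 866 CPM. Its groups did not overlap and its log2 fold change was -1.54 ± 0.39 (SE; edgeR adjusted p = 0.0624). Of the exonic bases of clik-1, 13.4% overlap a gene on the other strand.

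**Figure D2:**
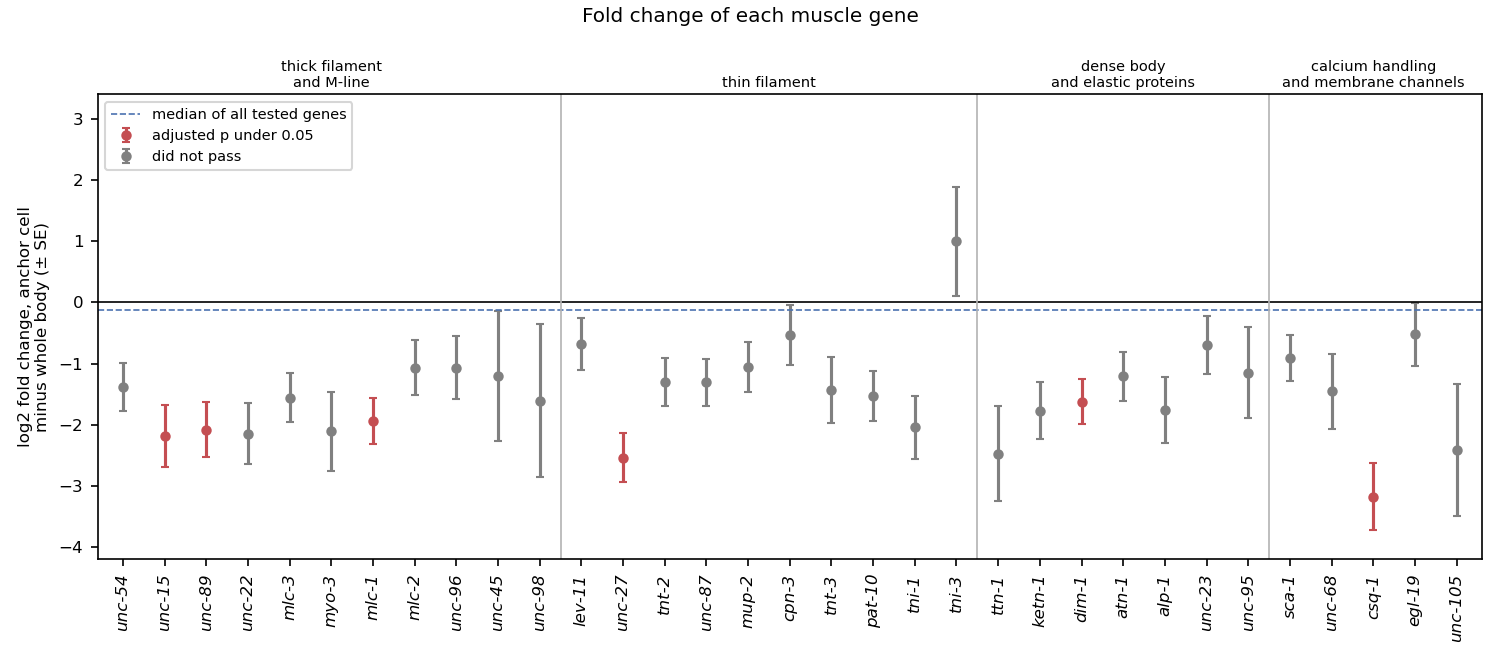
Log2 fold change of each of the 33 genes, anchor cells minus whole body, with bars of ± 1 SE from the edgeR test and genes grouped by role. The 6 genes that fell are red, tni-3 alone lies above 0, and the dashed line marks the median of all tested genes at -0.12.

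Among 7 genes for dense body and elastic proteins 1 fell (1.05% of all tested genes). The median log2 fold change of the 7, -1.63, was close to that of the thick filament list. Their summed level was 979 ± 366 CPM in anchor cells and 3626 ± 708 CPM in the whole body (SD, n = 3 each). Of the 7, 5 were below the whole-body range in every anchor cell library (23.2% of all tested genes). The gene that fell, dim-1 (chromosome X, 8050466 to 8058220), encodes an immunoglobulin repeat protein found near dense bodies. It had 231, 237 and 247 CPM in anchor cells and 886, 748 and 574 CPM in whole-body cells. Like mlc-1 and unc-27 it was nearly constant over the anchor cell libraries, which lay within 1.07-fold. It fell by 1.63 on the log2 scale (SE 0.37, edgeR adjusted p = 0.0443). Leaving out anchor cell replicate 1 kept the call (0.0208), and leaving out any other library lost it (0.0764 to 0.214).

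Titin-like and kettin proteins span parts of the sarcomere and resist stretch. The titin-like gene ttn-1 (chromosome V, 6120909 to 6202632), with 56044 exonic bases the longest of the 33, had 621, 82.5 and 79.5 CPM in anchor cells and 1919, 1200 and 1229 CPM in whole-body cells. Replicate 1 was 7.81 times as high as replicate 3, and the log2 fold change of -2.47 ± 0.78 (SE; edgeR adjusted p = 0.0846) became -4.16 without replicate 1 (edgeR adjusted p = 0.00291). The kettin gene ketn-1 had 251, 134 and 418 CPM against 1066, 798 and 879 CPM and did not pass (log2 fold change -1.77 ± 0.47, SE; edgeR adjusted p = 0.0682). Replicate 1 was the highest anchor cell library for ttn-1, as for myo-3 and unc-15, but not for ketn-1. Of the 33 genes, 12 were highest in replicate 1, 7 in replicate 2 and 14 in replicate 3.

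The alpha-actinin gene atn-1, whose product cross-links actin at dense bodies, had 113, 66.1 and 114 CPM against 256, 176 and 242 CPM (log2 fold change -1.21 ± 0.40, SE; edgeR adjusted p = 0.0973). The gene alp-1, for a PDZ and LIM domain protein of the same structure, had 73.6, 21.1 and 94 CPM against 242, 198 and 199 CPM (log2 fold change -1.76 ± 0.54, SE; edgeR adjusted p = 0.0793). Neither passed, although in both the groups were apart. The LIM protein gene unc-95 had 166, 314 and 62 counts against 1015, 914 and 498 counts. The BAG domain cochaperone gene unc-23, needed for muscle attachment, had 49.1, 55.2 and 25.4 CPM against 49.8, 81.3 and 78.4 CPM. For unc-95 and unc-23 the groups overlapped on the scaled level (log2 fold changes of -1.15 ± 0.75 and -0.69 ± 0.47, SE; edgeR adjusted p = 0.393 and 0.417).

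Of the 5 calcium handling and membrane channel genes, 1 fell (1.05% of all tested genes), the calsequestrin gene csq-1 (chromosome X, 14684877 to 14688322). Below the whole-body range in every anchor cell library were 4 of the 5 (23.2% of all tested genes). The 5 summed to 731 ± 225 CPM in anchor cells and 1605 ± 212 CPM in the whole body (SD, n = 3 each). Transcripts of csq-1 stood at 19.6, 24.3 and 7.37 CPM in anchor cells and 191, 117 and 156 CPM in whole-body cells. It fell by 3.18 on the log2 scale (SE 0.54, edgeR adjusted p = 0.0194), further than the other 32 in this fit, though without anchor cell replicate 1 the values of ttn-1 (-4.16), unc-105 (-3.85) and myo-3 (-3.31) were below that of csq-1 (-3.29), as those of ttn-1 and unc-105 were with voom sample weights. The highest anchor cell library stood at 24.3 CPM and the lowest whole-body library at 117 CPM. The call held without any one library except whole-body replicate 3 (edgeR adjusted p = 0.0784).

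The calcium pump and the release channel did not pass. The sarco-endoplasmic reticulum calcium ATPase gene sca-1 had 436, 393 and 663 CPM in anchor cells and 1000.5, 821 and 982 CPM in whole-body cells (log2 fold change -0.91 ± 0.38, SE; edgeR adjusted p = 0.169). Its pump serves all cells, not muscle alone, and 7.49% of its exonic bases overlap an antisense RNA gene. The ryanodine receptor gene unc-68 had 218, 32.5 and 206 CPM against 478, 341 and 433 CPM, with anchor cell replicate 2 far below the other two (log2 fold change -1.45 ± 0.62, SE; edgeR adjusted p = 0.181). The log2 fold change of unc-68 without that library was -0.97 (edgeR adjusted p = 0.176). Differences among csq-1, sca-1 and unc-68 were not tested.

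The voltage-gated L-type calcium channel gene egl-19, also active in neurons and other excitable cells, had 107, 32.6 and 46.5 CPM in anchor cells and 107, 87.4 and 73.8 CPM in whole-body cells. Anchor cell replicate 1 thus stood at the level of the highest whole-body library, and the gene did not pass (log2 fold change -0.53 ± 0.51, SE; edgeR adjusted p = 0.584). The degenerin channel gene unc-105 had 100, 18 and 8 counts against 570, 497 and 184 counts (log2 fold change -2.41 ± 1.08, SE; edgeR adjusted p = 0.202), the lowest counts of the 5. The median log2 fold change of the 5 genes was -1.45, but by replicate it was -1.10, -2.67 and -1.02 against the whole-body mean.

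Divided by exonic length, levels can be set beside each other between genes. In whole-body cells unc-27 was highest at 2467 ± 735 CPM per kb, followed by lev-11 at 1634 ± 234.8 and unc-15 at 1075 ± 177 CPM per kb (SD, n = 3). The next 3 were tnt-2 (786 ± 151), unc-54 (694 ± 158) and mlc-3 (672 ± 113 CPM per kb). Differences between these genes, which were measured in the same libraries, were not tested. In anchor cells lev-11 came first at 1016 ± 436 CPM per kb, followed by unc-27 at 425 ± 8.49 and tnt-2 at 319 ± 92.4 CPM per kb. The lowest in both groups was unc-105, at 0.457 ± 0.503 CPM per kb in anchor cells and 2.44 ± 0.999 CPM per kb in whole-body cells. As a description over the 33 genes, which share libraries, Spearman's rho of the per-length levels was 0.988 to 0.995 between whole-body libraries, 0.874 to 0.915 between anchor cell libraries and 0.896 to 0.916 across the groups.

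Within families of paralogs the balance of levels per length varied less over the whole-body libraries than over the anchor cell libraries. The share of unc-54 in the 2 heavy chains was 86.7%, 97.7% and 98% in the anchor cell libraries and 91.5%, 90.9% and 92.1% in the whole-body libraries. Replicate 1 lay below the whole-body range and replicates 2 and 3 above it. The share of mlc-2 in the 2 regulatory light chains was 53.7%, 74.5% and 72.2% in anchor cells and 59.9%, 54.1% and 49.6% in whole-body cells, subject to the shared reads named above. For troponin I, tni-3 took 7.76%, 1.42% and 2.05% in anchor cells and 0.626%, 0.456% and 0.0811% in whole-body cells, so that every anchor cell library was above the whole-body range. For troponin T, tnt-2 took 56.5%, 75.4% and 64.9% in anchor cells and 70.8%, 69.3% and 66.9% in whole-body cells, and the groups overlapped. These shares were not tested.

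**Figure D3:**
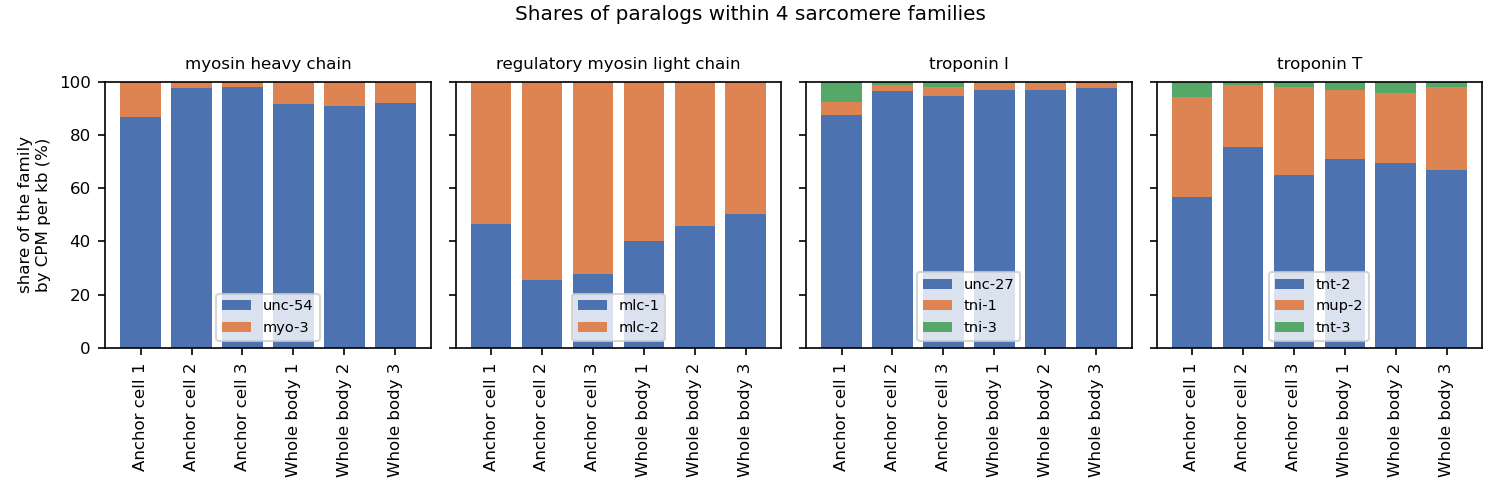
Share of each paralog within 4 sarcomere families in each library, from CPM per kb, as stacked bars from 0 to 100%. The 3 whole-body bars vary less within each family than the 3 anchor cell bars, and anchor cell replicate 1 has more myo-3 and tni-3 than replicates 2 and 3.

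A ratio of 2 genes within a library does not depend on how libraries are scaled. Per 1000 counts of unc-54, lev-11 had 1110, 1269 and 1916 counts in anchor cells and 836, 1018 and 902 counts in whole-body cells, so every anchor cell library was above the whole-body range. The same held for tni-3, with 27.4, 3.24 and 4.86 counts against 2.82, 2.55 and 0.550 counts. Below the whole-body range in every anchor cell library were unc-27, with 303, 216 and 221 counts against 429, 533 and 650, and csq-1, with 15.3, 13.1 and 4.04 counts against 38, 36.6 and 33.2. For the other 28 of the 32 genes the ratios of the 2 groups overlapped. Over all other tested genes, the ratio to unc-54 was above the whole-body range in every anchor cell library for 29.2% and below it for 9.80%, so the 2 of 32 below were near the share of all genes and the 2 of 32 above were under it. The ratios were not tested.

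The anchor cell replicates had different muscle profiles by this measure. In replicate 1, 26 of the 32 ratios were within 2-fold of the whole-body mean ratio, 5 were higher and 1 was lower. In replicate 2, 19 were within 2-fold and 13 were lower, and in replicate 3, 20 were within, 9 lower and 3 higher. The median log2 of the 32 ratios over the whole-body mean ratio was 0.40, -0.51 and -0.40. These counts also move with unc-54 itself. Its log2 level over the whole-body mean was -1.75, -1.22 and -1.24, against medians of -1.39, -1.64 and -1.58 for the 33 genes. The heavy chain gene myo-3 had 151, 23.2 and 19.6 counts per 1000 of unc-54 in anchor cells against 91.6, 97.9 and 85 in whole-body cells, and unc-15 had 1102, 240 and 315 against 828, 940 and 828. Replicate 1 was above the whole-body range and replicates 2 and 3 below it for both. Across the whole-body libraries 2 of the 32 ratios varied by more than 2-fold, and across the anchor cell libraries 23 did.

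**Figure D4:**
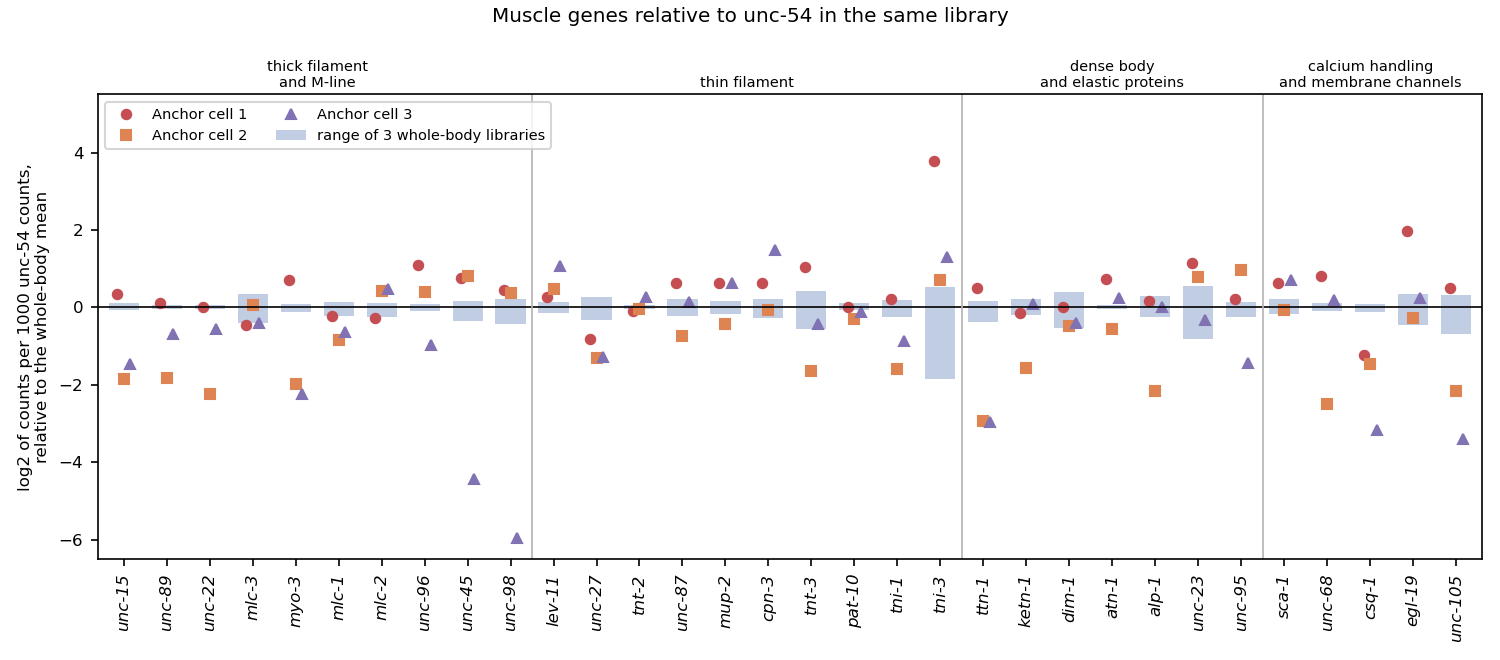
Counts of each gene per 1000 counts of unc-54 in the same anchor cell library, as log2 of the ratio to the whole-body mean, with shaded bars for the range of the 3 whole-body libraries. Only csq-1 and unc-27 lie below the shaded range in all 3 libraries and only lev-11 and tni-3 above it.

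Exonic length moved with the level in anchor cell replicate 2. Over the 33 genes, Pearson's r between log2 length and log2 of the CPM over the whole-body mean was 0.04, -0.64 and -0.15 for the 3 anchor cell libraries in order (Spearman's rho 0.23, -0.54 and -0.12), as a description of genes that share a library. Over 11473 tested genes with a known length it was -0.02, -0.04 and -0.04. The 8 genes over 5000 bases were ttn-1, unc-22, unc-89, ketn-1, unc-68, egl-19, unc-54 and myo-3. Their median log2 ratio was -1.43, -3.11 and -1.52 in replicates 1, 2 and 3, and that of the 25 shorter genes was -1.39, -1.51 and -1.58. In replicate 2, unc-54 (-1.22) and egl-19 (-1.45) lay above the median of the shorter genes, and ketn-1 (-2.77) was the highest of the other long genes. Over all tested genes, the 370 above that length had medians of 0.14, -0.40 and -0.12, and the 11103 shorter ones -0.26, -0.64 and -1.11. The part of length in the result was not tested.

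**Figure D5:**
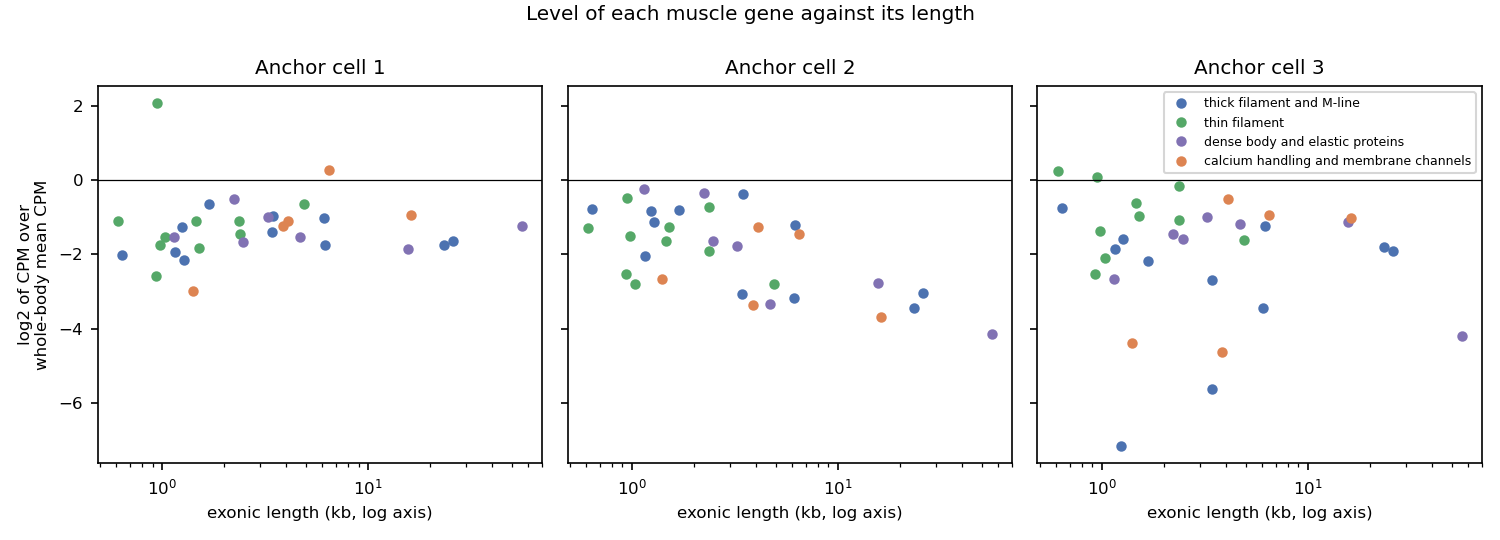
Log2 of the CPM of each gene over its whole-body mean against exonic length in kb (log axis), 1 panel per anchor cell replicate and 1 point per gene, coloured by role. Points fall with length in replicate 2, where the 8 genes over 5000 bases have a median of -3.11, and no such slope is seen in replicate 1.

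Genes of the muscle attachment complex, which ties dense bodies to the basement membrane, had a median log2 fold change of -0.12, that of all tested genes. Their values ranged from -1.78 to 1.12, and 8 of the 14 were below 0, where 53.2% of all tested genes were. None of 14 attachment complex genes passed edgeR's test, which called 1.05% of all tested genes lower. At an unadjusted p under 0.05, 2 were lower and 1 higher, against 13.2% and 11.2% of all tested genes. DESeq2 called none and limma voom called 1 fall, of the integrin gene pat-3. DESeq2 and limma voom called falls in 10.6% and 9.47% of all their tested genes. The perlecan gene unc-52, a basement membrane component, had 801, 705 and 570 CPM in anchor cells and 511, 794 and 385 CPM in whole-body cells, and the vinculin gene deb-1 had 529, 295 and 265 CPM against 481, 356 and 347 CPM, with overlapping groups in both. The zyxin gene zyx-1 had 217, 175 and 310 CPM against 437, 341 and 326 CPM, with no overlap (edgeR adjusted p = 0.340).

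Actin, the subunit of the thin filament itself, was not called lower in anchor cells. None of 10 genes for actins and their regulators passed edgeR's test. At an unadjusted p under 0.05 none was lower and 3 were higher, against 13.2% and 11.2% of all tested genes. DESeq2 and limma voom called none. Limma voom with sample weights called a rise of act-2, where it called 5.31% of all tested genes higher. The median log2 fold change of the 10 genes was 0.68. The actin gene act-4 had 2238, 5111 and 6638 CPM in anchor cells and 3870, 2504 and 3270 CPM in whole-body cells, act-2 had 403, 1222 and 2182 CPM against 307, 257 and 452 CPM, and the cofilin gene unc-60 had 282, 1632 and 1550 CPM against 533, 619 and 479 CPM. In all 3, anchor cell replicate 1 was lower than replicates 2 and 3. These actin genes are active in many cells and have near-identical copies, so reads can be shared between act-1, act-2, act-3 and act-4.

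Of 25 genes for receptors, channels and the dystrophin complex none passed edgeR's test. At an unadjusted p under 0.05, 5 were lower and 2 higher, against 13.2% and 11.2% of all tested genes. DESeq2 called 4 falls among 23, where it called 10.6% of all its tested genes lower. Limma voom called 4 falls and 1 rise (9.47% and 3.45% of all tested genes). The GABA receptor gene unc-49 had 21.7, 4.04 and 2.26 CPM in anchor cells and 87.1, 70.3 and 66.2 CPM in whole-body cells (log2 fold change -2.99 ± 0.81, SE; edgeR adjusted p = 0.0682). The dystrophin gene dys-1 had 272, 62.0 and 236 CPM against 287, 249 and 259 CPM, and the junctophilin gene jph-1 had 97.7, 53.8 and 23 CPM against 115, 77.2 and 61.3 CPM. The groups overlapped in both, and neither gene passed (edgeR adjusted p = 0.632 and 0.613). Of the 3 muscle transcription factor genes 2 were tested, hlh-1 and unc-120, and neither passed with edgeR at an adjusted or an unadjusted p, with DESeq2 or with limma voom.

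Pharyngeal muscle, which uses its own myosins and troponins, varied between libraries of both groups. None of 7 tested pharyngeal genes passed edgeR's test. At an unadjusted p under 0.05, 1 was lower, against 13.2% of all tested genes. DESeq2 called 1 fall among 8 (10.6% of all its tested genes) and limma voom none. The pharyngeal myosin gene myo-2 had 81.9, 95.8 and 606 CPM in anchor cells and 867, 514 and 186 CPM in whole-body cells, and myo-1 had 63.8, 70.2 and 358 CPM against 599, 376 and 146 CPM. Anchor cell replicate 3 was thus above whole-body replicate 3 for both. The troponin I gene tni-4 had 12.1, 48.0 and 55.5 CPM against 76.5, 57.2 and 78.3 CPM.

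Markers of further cell types moved in both directions. Of all tested genes, edgeR called 1.05% lower and 2.01% higher, DESeq2 10.6% and 5.37%, and limma voom 9.47% and 3.45%. At an edgeR unadjusted p under 0.05, 13.2% were lower and 11.2% higher. Of 10 germ line markers 1 fell and none rose (DESeq2 called 6 falls), and the list summed to 151 to 333 CPM in anchor cells and 375 to 454 CPM in whole-body cells, with rme-2 at 0 in all anchor cell libraries. Of the germ line sums, nos-3 alone gave 127, 185 and 305 CPM in anchor cells and 160, 167 and 159 CPM in whole-body cells. The median log2 fold change of the germ line list was -2.86. None of 8 tested intestine markers passed edgeR's test, adjusted or at an unadjusted p under 0.05, nor DESeq2 or limma voom (123 to 558 CPM against 531 to 1074 CPM, with end-3 at 0 in anchor cells). Of 10 neuron markers none passed edgeR's test, with 4 higher at an unadjusted p under 0.05, DESeq2 called none and limma voom 1 rise, and the list summed to 740 to 1375 CPM in anchor cells and 385 to 630 CPM in whole-body cells. Of 10 epidermis markers 1 rose by edgeR's test, DESeq2 called 3 rises and 1 fall and limma voom 3 rises (1846 to 3093 CPM against 910 to 1295 CPM). Of the epidermis sums, vab-10 alone gave 1419, 875 and 1252 CPM in anchor cells and 680, 800 and 691 CPM in whole-body cells. None of 4 coelomocyte markers passed edgeR's test (1 was lower at an unadjusted p under 0.05), while DESeq2 called 1 fall and limma voom 1 (5.20 to 21.1 CPM against 24.0 to 35.6 CPM). The part of other cell types in the muscle result was not tested.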

How the data were processed

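Gene expression was measured by RNA sequencing of 3 anchor cell and 3 whole-body libraries, made with the Ovation RNA-Seq System from 8 to 10 ng of RNA, per the labels' protocols. Each deposited file holds whole-number counts of reads for each gene name, with no normalization; FastQC, Trim Galore, STAR, HTSeq, R 4.0.2, DESeq2 1.30.1 and genome build WBcel235 are named, per the submitters' processing notes. The sources used here do not give a strand setting or an annotation release. HTSeq's summary lines were removed before scaling and testing; reads on no gene were 0.807% to 3.88% and ambiguous reads 0.303% to 0.677% of all counts.

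Counts were filtered with filterByExpr (11955 genes kept), scaled by TMM (factors 0.674 to 0.889 in anchor cells, 1.17 to 1.66 in whole-body cells) and tested with edgeR 4.0.16 (robust quasi-likelihood F test, R 4.3.3, group as the only term, Benjamini-Hochberg adjustment over all tested genes, threshold 0.05). The SE is the absolute log2 fold change divided by the square root of F. CPM use the TMM scaling. Lengths (union of exons) and positions come from Ensembl release 115 for WBcel235, which may differ from the submitters' annotation. The fit was also run on simulated counts, drawn for both groups from the same mean profile with changes added to a small set of genes. That run does not bear on the choice of scaling. Alternatives were 3 other scalings, 2 other filters, DESeq2 1.42.0, limma 3.58.1 voom, a block for the replicate number, removal of rRNA and mitochondrial genes, and each library left out; a voom fit with sample weights was chosen after seeing the data. Counts of the 33 genes called or apart between groups are set beside the share of all genes tested in the same way. No library repeated another (chi-square per degree of freedom at least 81.0). Limits from counts cover counting error only, since the RNA was amplified and the labels name no molecular identifiers.

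The 34 symbols and all lists were chosen with earlier results of these data known, so they are no independent evidence. Every listed gene is named. From the other muscle lists, genes that passed and up to 3 of the highest whole-body level that did not are named. Genes named beyond these (pat-3, rme-2, end-3, nos-3, vab-10) were chosen after their values were seen.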

Additional observations from a re-analysis of the deposited data

How the results depend on the processing

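The number of the 33 genes that fell was 6 (1.05% of all tested genes fell), also with DESeq2 size factors (1.06%) or without rRNA and mitochondrial genes (1.04%), and was 8 with DESeq2 (10.6%). It was 11 with upper-quartile scaling (1.26%), 19 with library totals alone (3.11%), 17 with no filter (1.39%), 16 of 31 with at least 10 CPM in at least 3 libraries (4.22%), 17 with limma voom (9.47%) and 17 with voom sample weights (11%). All 6 calls were among those of each of these settings. No gene rose under any of them. Leaving out 1 library gave 0 to 17. The replicate block gave 14 (2.83%). Same-numbered libraries did not deviate together (correlations 0.042, -0.057 and -0.034). With 3 libraries a group and a wide spread between anchor cell libraries, such correlations cannot exclude pairing, which the labels do not give. The causes were not tested. Library totals moved the median of all tested genes from -0.12 to -0.94, and the median of the 33 relative to it from -1.33 to -1.28. That relative median was -0.93 with DESeq2, -0.87 with limma voom, -0.88 with voom sample weights and with the replicate block, -0.77 without anchor cell replicate 1, -1.64 with the 10 CPM minimum and -0.31 with no filter, where 24 of the 33 lay below the median of all genes.

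The median log2 fold change of the thick filament list was -2.42 with library totals and -2.15 with limma voom, that of the thin filament list -2.12 with library totals, and that of the dense body list -1.83 with upper-quartile scaling, -2.46 with library totals and -1.80 with the 10 CPM minimum. Over left-out libraries the lists ranged from -1.81 to -1.55 (thick), -1.41 to -1.06 (thin), -1.78 to -1.45 (dense body) and -1.80 to -0.97 (calcium). The sign of tni-3 reversed to -0.16 without anchor cell replicate 1, and its values over left-out libraries reached 1.64. Over the 33 genes in all alternative settings, 421 values kept their side, 82 newly passed and 22 no longer passed. Counting error is relatively largest for unc-45, unc-98, unc-95 and unc-105, which had 5, 1, 62 and 8 counts in anchor cell replicate 3, the deepest anchor cell library.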
